A study of Mus musculus with 66 samples.

Results

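The comparison described here is the time step after injection of Alzheimer's disease (AD) brain extract in the 3-month cohort, 3 hippocampal RNA libraries at 5 months post injection (mpi) against 5 at 3 mpi, called the AD step below. These 8 libraries, chosen by the cohort, extract and time that the labels give, are 8 of the 66 of the series. All came from C57BL/6 mice labelled as 3 months old, and the labels do not say whether that is the age at injection or at collection. Every group of the series received a brain extract, so no uninjected mice stand beside them. The same step after control (Ctrl) extract, 5 libraries at 5 mpi against 5 at 3 mpi, and the AD step of the 12-month cohort, 7 libraries against 6, served as comparisons. The titles give each library its own number, but the labels do not say that each is a separate mouse. Both AD groups hold libraries of both sexes by Xist and Ddx3y, so the libraries of a group do not all come from a single mouse. The p-values rest on library-to-library spread, which may still be technical in part.

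Brain extract that holds aggregated tau can template the misfolding of the host's own tau, and the hippocampus is a region where injected tau seeds are known to spread between connected neurons. The hippocampus borders the lateral ventricle, so dissected tissue can carry ependyma, the ciliated lining of the ventricle, and choroid plexus, the frond of epithelium that secretes cerebrospinal fluid. Choroid plexus epithelium is known for transthyretin, folate receptor alpha, Klotho and a dense set of ion and water transporters.

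The 8 libraries held between 44463718 and 55434005 reads. Markers of hippocampal neurons were present in each: Prox1 of dentate granule cells lay between 72.2 and 133 scaled CPM, Wfs1 between 79.6 and 129, Fibcd1, like Wfs1 a marker of CA1, between 125 and 178, and Neurod6 of pyramidal cells between 187 and 280. No pair of libraries within a group agreed within sampling noise, the closest having a chi-square of 6.83 per degree of freedom. Xist, the RNA that coats the inactive X chromosome, was high in libraries 1 and 3 at 3 mpi (806 and 698) and in library 2 at 5 mpi (760), and Ddx3y of the Y chromosome was high in the other 5 (between 81.7 and 94.4).

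Of 19976 genes tested with limma on log2(value + 1), 1045 (5.23%) passed a Benjamini-Hochberg adjusted p of 0.05 in the AD step. At 5 mpi 298 were higher (1.49%) and 747 lower (3.74%). With only these 8 libraries in the fit 2122 genes passed, 967 higher and 1155 lower, so the excess of falls was much smaller there. The lower genes fell by much more than the higher genes rose: their median log2 fold change was -0.62 with 188 genes beyond 1, against a median of 0.26 and none beyond 1 among the higher. Of all genes tested, 1809 (9.06%) lay lower in every 5 mpi library than in any 3 mpi library, and 1973 (9.88%) lay higher in every one. The median log2 fold change over all genes was 0.0068, and 52.0% were positive. For genes with low values the log2(value + 1) scale understates the change. Choroid plexus level moved with the step, and with the mean level of the choroid plexus genes as a covariate 1 gene passed, Gm32468. The count was also lower with any 1 of the 8 libraries left out. Without 5 mpi library 1 it was 272, without 5 mpi library 3 it was 506, and without 3 mpi libraries 2 or 4 it was 662 or 676. The 298 higher and 747 lower genes all kept their sign without 5 mpi library 1, with medians of 0.27 and -0.60. The median standard error over all genes was then 0.105, against 0.0915 with all libraries.

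Choroid plexus genes fell together and held the deepest changes of the comparison. Of the 17 listed genes tested, 16 fell, none rose, and in 17 of 17 every 5 mpi library lay below every 3 mpi library. Their median log2 fold change was -3.59. Without 5 mpi library 1, 10 of the 17 passed. In bulk tissue, fewer cells of a type and less RNA per cell cannot be told apart. The labels do not say whether the tissue was dissected alike at 3 and 5 mpi, and the part of choroid plexus carried with the hippocampus was not tested.

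Ttr encodes transthyretin, the thyroxine carrier that choroid plexus secretes into cerebrospinal fluid. Its deposited value was 5446, 6764, 5323, 6536 and 5144 in scaled CPM (reads at a common library size) in the 5 libraries at 3 mpi and 25.4, 132 and 709 in the 3 at 5 mpi. The groups did not overlap, and the 3 libraries at 5 mpi also differed widely among themselves. The log2 fold change was -5.42 (SE 1.15, limma adjusted p = 0.00604), the largest fall of any named gene.

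The solute and ion handling genes of this epithelium fell likewise. Folr1, the folate receptor that moves folate into cerebrospinal fluid, was at 37.4, 44.6, 48.7, 42.6 and 39.3 at 3 mpi and at 0.901, 1.34 and 5.31 at 5 mpi. Library 1 at 5 mpi was the lowest and library 3 the highest, still well under all 3 mpi libraries. Folr1 fell by 3.83 (SE 0.77, limma adjusted p = 0.00450) on the log2 scale. Aqp1, the water channel of the apical membrane, fell by 3.88, Slc4a5, a bicarbonate cotransporter, by 4.04, and Kcne2 and Kcnj13, subunits of potassium channels, by 3.95 and 3.66. Clic6, of the chloride intracellular channel family, fell by 3.59 and Cldn2, a claudin of leaky epithelia, by 3.82. The sodium, potassium and chloride cotransporter Slc12a2, which other brain cells express too, was at 185, 197, 197, 180 and 167 at 3 mpi and at 88.8, 81.6 and 92.2 at 5 mpi. Those 3 libraries lay close together, and the fall of 1.07 (SE 0.16, limma adjusted p = 0.00101) had one of the smaller p-values of the comparison.

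Secreted and signalling genes of the choroid plexus gave the same direction. Enpp2, which makes lysophosphatidic acid and is also made by oligodendrocytes, was at 2761, 3187, 3783, 2702 and 2472 at 3 mpi and at 205, 218 and 516 at 5 mpi. The groups were far apart, and Enpp2 fell by 3.37 (SE 0.65, limma adjusted p = 0.00358). Kl, the co-receptor for fibroblast growth factor 23, was at 208, 229, 264, 216 and 188 at 3 mpi and at 25.6, 28.9 and 55.9 at 5 mpi. Library 3 at 5 mpi was again the highest of its group, and Kl fell by 2.63 (SE 0.49, limma adjusted p = 0.00310). Prlr, the prolactin receptor, was at 100, 103, 365, 86.4 and 71.8 at 3 mpi and at 5.63, 9.65 and 14.2 at 5 mpi. Library 3 at 3 mpi stood far above its group, and the fall was 3.55 (SE 0.61, limma adjusted p = 0.00185).

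The other genes among the 15 deepest falls were Tmem72, Mfrp, F5, Col8a1 and Ecrg4. Tmem72, a membrane protein of choroid plexus and kidney, fell by 4.64. Mfrp, a frizzled-related membrane protein, fell by 4.22, F5, coagulation factor V, by 4.05, Col8a1, a short-chain collagen, by 3.35 and Ecrg4, a secreted peptide precursor, by 3.34. Otx2, the homeodomain factor that choroid plexus needs for its development and upkeep, was at 23.7, 28.2, 32.2, 26.0 and 18.8 at 3 mpi and at 0.766, 4.15 and 6.01 at 5 mpi. Otx2 was thus low in all 3 libraries, least so in library 3, and fell by 2.72 (SE 0.52, limma adjusted p = 0.00341). Slc13a4, a sulfate transporter that meningeal cells share, was the listed gene that did not pass (-1.89, limma adjusted p = 0.0515).

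**Figure D1:**
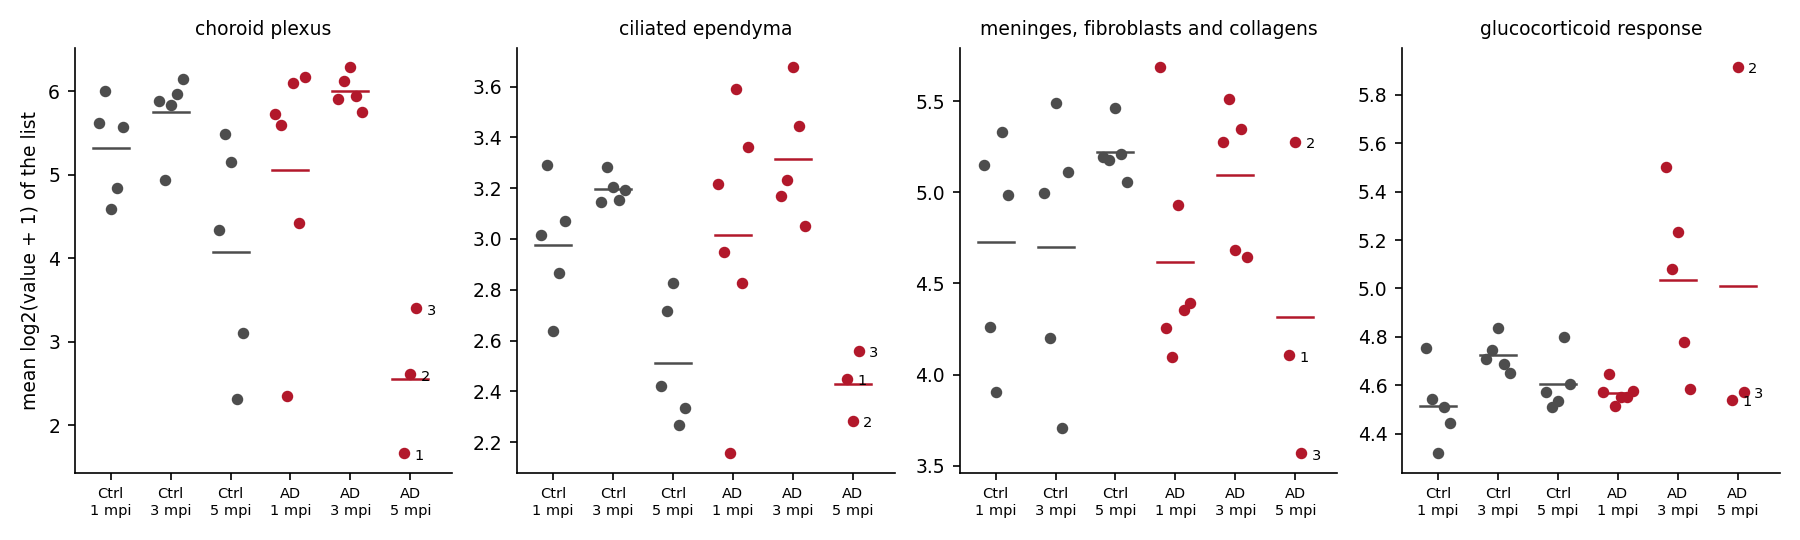
Mean log2(value + 1) of 4 gene lists in each library of the 3-month cohort (y axis), by extract and time (x axis); points are libraries, bars are group means, and the 3 libraries of AD extract at 5 mpi carry their replicate numbers. The choroid plexus level of those 3 libraries lies between 1.66 and 3.40 against 5.75 to 6.29 at 3 mpi, and library 2 stands apart in the meninges and glucocorticoid panels.

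Choroid plexus level varied outside the AD step as well. At 3 mpi the mean log2 level of the choroid plexus genes was 6.00 ± 0.21 (SD, n = 5) after AD extract and 5.75 ± 0.48 (n = 5) after Ctrl extract. At 5 mpi it was 2.56 ± 0.87 (n = 3) after AD extract and 4.08 ± 1.35 (n = 5) after Ctrl extract. The Ctrl libraries at 5 mpi ran from 2.31 to 5.49 and overlapped with the AD libraries of that time. At 1 mpi the 6 libraries after AD extract ran from 2.35 to 6.16.

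Promoter sequence is shown for genes that fell together, for motifs of factors known in these cells. TAATCC, on either strand, is the core bound by OTX-type homeodomains, and the X-box, searched on either strand in its full inverted-repeat form, is bound by RFX factors at genes of cilia. Their letters do not overlap. RefSeq promoters (GRCm38.p6, 250 bases before to 50 after each start) matched 147 of the 188 genes that fell by more than 1, with 193 promoters. TAATCC was in 19 of those 193 promoters (9.84%), against 6.03% of the 17356 promoters of genes tested and 7.06% of all 32851. The X-box was in 2 (1.04%), against 0.311% for genes tested and 0.298% of all. These shares were not tested for a difference. The X-box was in 0 of 7 promoters of the ciliated ependyma genes and 0 of 19 of the choroid plexus genes. Of the 17 choroid plexus genes 13 had a promoter in the table, and TAATCC stood in that of 1, Otx2. The upstream 250 bases of 4 genes that hold a match are printed with the match in capitals, Mfrp and Otx2 for TAATCC and Pifo and Six3 for the X-box. A match describes letters in the window and no binding was measured.
Mfrp (GRCm38.p6, chr9:44101520-44101769, plus strand): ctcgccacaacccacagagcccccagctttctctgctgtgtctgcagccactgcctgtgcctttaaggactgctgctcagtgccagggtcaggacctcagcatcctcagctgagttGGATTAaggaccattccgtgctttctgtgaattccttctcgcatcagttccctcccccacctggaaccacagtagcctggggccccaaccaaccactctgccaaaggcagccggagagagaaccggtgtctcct
Otx2 (GRCm38.p6, chr14:48665110-48665359, minus strand): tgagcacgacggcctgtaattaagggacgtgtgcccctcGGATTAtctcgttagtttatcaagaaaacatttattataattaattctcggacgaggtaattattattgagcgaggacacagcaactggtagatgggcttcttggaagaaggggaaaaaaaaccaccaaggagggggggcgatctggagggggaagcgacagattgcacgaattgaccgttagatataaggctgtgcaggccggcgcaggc
Pifo (GRCm38.p6, chr3:106001498-106001747, minus strand): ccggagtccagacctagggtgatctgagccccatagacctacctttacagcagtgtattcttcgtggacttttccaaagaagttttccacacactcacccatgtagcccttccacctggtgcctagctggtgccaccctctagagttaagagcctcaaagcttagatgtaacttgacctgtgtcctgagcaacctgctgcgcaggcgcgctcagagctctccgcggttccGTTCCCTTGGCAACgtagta
Six3 (GRCm38.p6, chr17:85620584-85620833, plus strand): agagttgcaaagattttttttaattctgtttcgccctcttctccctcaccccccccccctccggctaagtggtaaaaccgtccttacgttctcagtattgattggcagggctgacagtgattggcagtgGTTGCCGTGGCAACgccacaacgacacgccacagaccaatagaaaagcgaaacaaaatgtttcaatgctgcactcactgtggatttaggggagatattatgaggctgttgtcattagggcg
Pifo, a gene of the base of cilia, and Six3, a homeodomain factor, were chosen after their values were seen, as the genes of that set with an X-box. Pifo was between 2.72 and 3.73 at 3 mpi and at 0.788, 0.601 and 1.61 at 5 mpi, with a log2 fold change of -1.13 (limma adjusted p = 0.00373). Six3 was between 2.07 and 2.71 at 3 mpi and at 0.180, 0.407 and 0.556 at 5 mpi (-1.35, limma adjusted p = 0.0194). Neither gene's groups overlapped.

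Genes of motile cilia fell as a group of smaller changes. Of the 7 ciliated ependyma genes tested, 5 fell, none rose, all 7 lay lower in each 5 mpi library, and the median log2 fold change was -0.99. Without 5 mpi library 1 or library 2, 3 passed. In the Ctrl step the 7 genes had a median of -0.69 with 0 positive and 0 passing. The mean log2 level of the list went from 3.32 to 2.43 after AD extract and from 3.20 to 2.51 after Ctrl extract. Foxj1, the master regulator of motile cilia, was at 15.3, 16.8, 20.9, 18.9 and 13.7 at 3 mpi and at 8.49, 7.23 and 8.40 at 5 mpi. The 3 libraries at 5 mpi lay close together below the rest, a fall of 0.99 (SE 0.22, limma adjusted p = 0.00796). Cfap126, a protein of ciliary basal bodies, fell by 1.2, Rsph1, a radial spoke protein, by 1.00, Dynlrb2, a dynein light chain, by 0.99, and Tmem212, an ependymal membrane protein, by 0.82. Ccdc153 (-0.70, limma adjusted p = 0.0578) and Rarres2 (-0.48, limma adjusted p = 0.119) did not pass.

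Axoneme genes outside that list were counted by symbol, a choice made after their values were seen. Of 32 genes named Cfap, for cilia and flagella associated protein, 15 fell, none rose and 1 had a positive value. Their median was -0.46 in the AD step and -0.35 in the Ctrl step. Cfap65 fell by 1.33, Cfap206 by 1.33, Cfap52 by 1.21 and Cfap61 by 1.04. Of 16 axonemal dynein heavy chains named Dnah, 3 fell, Dnah6 by 1.45, Dnah11 by 1.32 and Dnah2 by 0.66. Choroid plexus epithelium also bears cilia, and its level moved with these genes. With it as a covariate the median of the 7 ependyma genes was -0.09 and that of the Cfap genes -0.05. In the 12-month AD step the 7 ependyma genes had a median of -0.25 with 0 positive. The 17 choroid plexus genes there had a median of 0.18 with 13 positive. Their mean log2 level varied widely within those groups, from 2.68 to 6.62 at 3 mpi and from 2.52 to 6.23 at 5 mpi. That of the ependyma genes ran from 2.29 to 3.22 and from 2.14 to 3.44. The part of choroid plexus in the falls of cilia genes was not tested.

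Several genes with small p-values fell by less and showed little spread within a group. Sdc2, a heparan sulfate proteoglycan of dendritic spines and other cells, was at 63.3, 64.2, 65.0, 63.0 and 59.5 at 3 mpi and at 46.9, 45.4 and 45.4 at 5 mpi. Both groups were tight and far from overlapping, and Sdc2 fell by 0.45 (SE 0.052, limma adjusted p = 3.00e-05). Inmt, an indolethylamine methyltransferase, was at 4.85, 4.48, 4.08, 5.51 and 4.10 at 3 mpi and at 1.22, 1.07 and 1.17 at 5 mpi. All 3 libraries at 5 mpi held it at a similar low level, and Inmt fell by 1.37 (SE 0.17, limma adjusted p = 9.42e-05). With choroid plexus level as a covariate the log2 fold change was -0.39 for Sdc2 (limma adjusted p = 0.0721) and -1.03 for Inmt (adjusted p = 0.131).

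The smallest p-value belonged to Gm32468, a long intergenic RNA at chr10:93084206-93093727 on the plus strand of GRCm38 that starts beside the start of Cfap54. It was named after its values were seen, since the naming rule leaves out gene models. Its value was 2.30, 1.95, 1.52, 2.23 and 2.13 at 3 mpi and 0.0451, 0.0582 and 0.391 at 5 mpi. The 5 mpi libraries lay near 0 and far from the others. Gm32468 fell by 1.38 (SE 0.13, limma adjusted p = 5.91e-07) and still by 0.96 (adjusted p = 0.00856) with the choroid plexus covariate. Its values are low, so these figures on the log2(value + 1) scale understate its change. Cfap54, its neighbour on the minus strand at chr10:92775619-93081618, fell by 0.77 (limma adjusted p = 0.00878). Gm32468 fell in the Ctrl step too, by 0.94 (adjusted p = 0.000101).

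Lars2, the mitochondrial leucyl-tRNA synthetase, was at 154, 156, 166, 206 and 155 at 3 mpi and at 95.9, 92.9 and 78.9 at 5 mpi. The groups did not overlap, and Lars2 fell by 0.90 (SE 0.17, limma adjusted p = 0.00323). Gm42418, a locus of ribosomal RNA sequence, lay between 772 and 1384 at 3 mpi and at 494, 612 and 423 at 5 mpi, and fell by 0.98 (limma adjusted p = 0.0104). With the Gm42418 level as a covariate 551 genes passed. Its part in the other changes was not tested further.

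**Figure D2:**
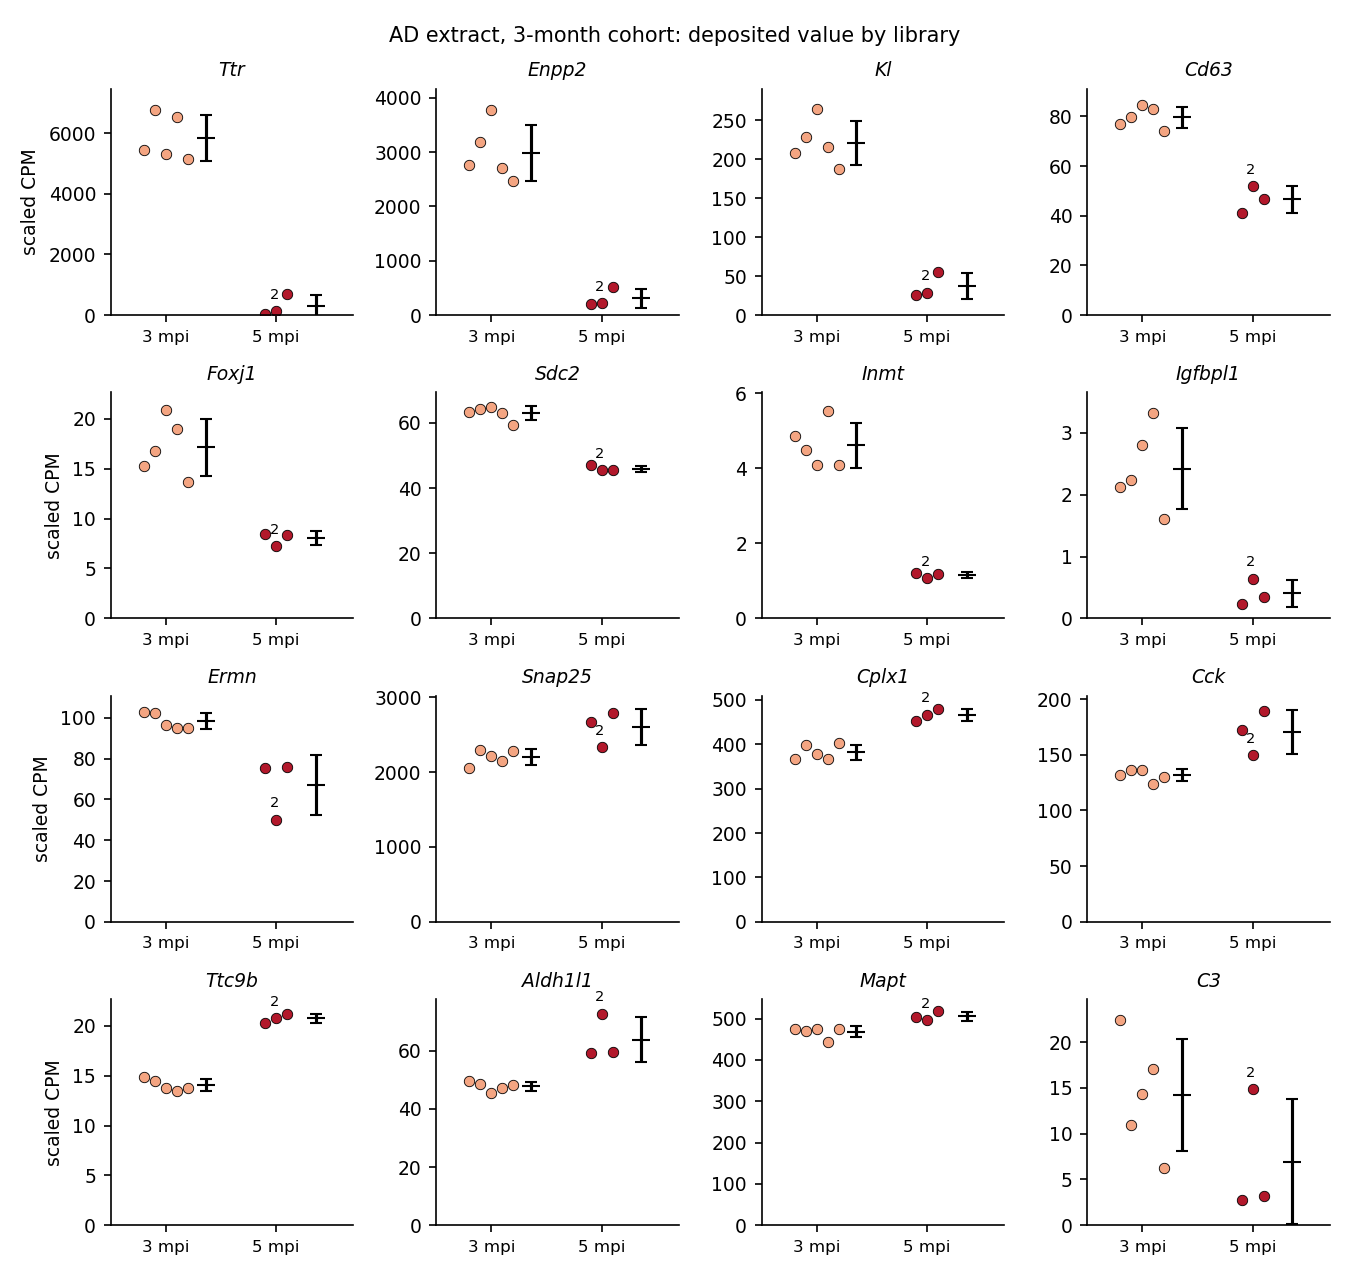
Deposited values (y axis, scaled CPM, from 0) of 16 genes in the 5 libraries at 3 mpi and the 3 at 5 mpi after AD extract; points are libraries, the bar beside them is the mean ± SD, and a 2 marks replicate 2 at 5 mpi. Ttr, Enpp2 and Kl lie near the bottom of the axis at 5 mpi, Sdc2 and Inmt separate with little spread, Snap25, Cplx1 and Ttc9b lie slightly higher, and C3 overlaps, with replicate 2 inside the 3 mpi range.

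Genes of the synapse held the most rises of any list, with small changes. Of 25 synapse genes tested, 4 rose, none fell, 23 were positive and 15 lay higher in every 5 mpi library. Over all genes tested 1.49% rose, 52.0% were positive and 9.88% lay higher in every 5 mpi library. The median log2 fold change was 0.22 against 0.0068 over all genes. After Ctrl extract 20 of the 25 were positive, with a median of 0.06 and none passing. The count of rises in the AD step was 8 with upper-quartile scaling, 1 without 5 mpi library 1 or 3 and 2 without 3 mpi libraries 1, 4 or 5. Cplx1, a complexin that clamps vesicle fusion, was at 367, 398, 378, 366 and 402 at 3 mpi and at 452, 467 and 479 at 5 mpi. The groups did not overlap, and Cplx1 rose by 0.29 (SE 0.063, limma adjusted p = 0.00773). Rab3a, a GTPase of synaptic vesicles, rose by 0.25 (limma adjusted p = 0.0194) and Shank1, a scaffold of the postsynaptic density, by 0.27 (limma adjusted p = 0.0340). Snap25, a SNARE of the presynaptic membrane, was at 2050, 2301, 2220, 2145 and 2287 at 3 mpi and at 2664, 2329 and 2794 at 5 mpi. Library 2 at 5 mpi lay only just above the highest 3 mpi library, and the rise of 0.24 barely passed (SE 0.070, limma adjusted p = 0.0475).

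Few genes of the other neuronal lists passed, beside 1.49% higher and 3.74% lower over all genes tested. Cck, a neuropeptide of interneurons and some pyramidal cells, was at 132, 137, 136, 123 and 130 at 3 mpi and at 172, 150 and 189 at 5 mpi. The groups did not overlap, and Cck rose by 0.36 (SE 0.10, limma adjusted p = 0.0304) as the 1 of 14 interneuron genes that passed. Of those 14 genes 12 were positive, with a median of 0.20, and 9 lay higher in every 5 mpi library. These values are near those of the synapse list. In the Ctrl step 12 of the 14 were positive too, with a median of 0.06. Gabbr2, a subunit of the GABA-B receptor, was the 1 of 30 glutamate and GABA receptor genes to pass (0.21, limma adjusted p = 0.0308), and 29 of the 30 were positive, against 15 of 30 with a median of 0.0047 under the choroid plexus covariate. Neither Cck nor Gabbr2 gave its list a call without 3 mpi libraries 1 or 4 or 5 mpi libraries 1 or 3, and the receptor list had none without 3 mpi libraries 2 or 3 either. Of families counted by symbol after their values were seen, potassium channel genes named Kcn had 3 higher and 2 lower of 89 tested, with Kcnab2 at 0.30, Kcnj11 at 0.30, Kcnc1 at 0.26 and the choroid plexus genes Kcne2 and Kcnj13 as the lower ones. Of 11 CA1 genes and 14 dentate granule cell genes none passed. Of 14 CA2 and CA3 genes 2 fell, Coch by 1.22 and Map3k15 by 0.95, while 7 of the 14 were positive with a median of -0.01. None of them passed without 5 mpi library 1 and 1 passed without 5 mpi library 3.

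The 15 highest log2 fold changes among named genes ran from 0.40 to 0.59. Pcdhga2, a gamma protocadherin that shares its last exons with the rest of its cluster, was at 12.9, 10.5, 12.8, 12.2 and 16.0 at 3 mpi and at 22.1, 15.8 and 22.1 at 5 mpi. The groups overlapped through library 2, and Pcdhga2 rose by 0.59 (SE 0.13, limma adjusted p = 0.00875). Counts can be split among the overlapping transcripts of that cluster, so its level is uncertain. Ttc9b, a tetratricopeptide repeat protein of neurons, was at 14.9, 14.5, 13.7, 13.5 and 13.8 at 3 mpi and at 20.3, 20.8 and 21.2 at 5 mpi. Both groups were tight, and Ttc9b rose by 0.53 (SE 0.11, limma adjusted p = 0.00691). Bbc3, the BH3-only death gene also called Puma, was between 2.41 and 3.40 at 3 mpi and at 3.78, 4.83 and 4.51 at 5 mpi (0.52, limma adjusted p = 0.0445). Lrfn1, a synaptic adhesion protein, rose by 0.44, Panx2, a pannexin of neurons, by 0.43 and Dact2, a modulator of Wnt signalling, by 0.46. Rpp25, a subunit of RNase P, rose by 0.44, mt-Tp, a mitochondrial tRNA, by 0.50 and Spag6, a protein of the axoneme, by 0.44. Fbxl15 of the F-box family rose by 0.43, Klhdc9 of the kelch family by 0.41 and Myh8, a myosin of developing muscle, by 0.40.

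Tau itself did not pass and few of its partners did. Mapt, which encodes tau, was at 475, 471, 474, 444 and 474 at 3 mpi and at 504, 496 and 517 at 5 mpi. Every 5 mpi library was above every 3 mpi library, yet the log2 fold change of 0.11 did not pass (SE 0.051, limma adjusted p = 0.206). Of the 24 genes of tau, its kinases, phosphatases and readers, 23 were positive and 2 rose, Map1a, a dendritic microtubule-associated protein, by 0.24 (limma adjusted p = 0.0201) and Gsk3a, a kinase that phosphorylates tau, by 0.23 (adjusted p = 0.0374). After Ctrl extract 21 of the 24 were positive and none passed. None passed in the AD step without 3 mpi library 4 or 5 mpi libraries 1 or 3, and 1 without 3 mpi libraries 1, 2 or 3. App, the amyloid precursor gene, was between 1867 and 1957 at 3 mpi and at 1993, 1837 and 2077 at 5 mpi. Its groups overlapped, and the value of 0.05 did not pass (adjusted p = 0.688).

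Astrocyte genes divided. Of 14 tested, 3 rose and 1 fell, against 1.49% higher and 3.74% lower over all genes tested. Aldh1l1, a folate enzyme used as a marker of all astrocytes, was at 49.5, 48.7, 45.3, 47.3 and 48.1 at 3 mpi and at 59.1, 72.7 and 59.7 at 5 mpi. Library 2 was the highest, and the rise was 0.40 (SE 0.094, limma adjusted p = 0.0119). Aldoc, an aldolase of astrocytes, rose by 0.37 and Acsbg1, an acyl-CoA synthetase, by 0.34. Timp4, a metalloproteinase inhibitor made by astrocytes, was between 23.2 and 31.8 at 3 mpi and at 35.7, 51.9 and 36.6 at 5 mpi, and rose by 0.50 (limma adjusted p = 0.0320). Slc7a10, an astrocytic transporter of serine and glycine, was at 27.6, 32.0, 31.6, 27.9 and 30.5 at 3 mpi and at 19.1, 21.8 and 22.7 at 5 mpi. It fell by 0.48 (SE 0.13, limma adjusted p = 0.0280), the opposite direction to the other astrocyte genes that passed. Without 5 mpi library 2 the values of Aldh1l1 and Timp4 were 0.31 (adjusted p = 0.0816) and 0.33 (adjusted p = 0.192).

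Myelin genes had small negative values. Of 20 genes of mature oligodendrocytes and myelin, 4 fell, against 3.74% over all genes tested. None was positive and the median was -0.24. Ermn, a cytoskeletal protein of late oligodendrocytes, was at 103, 102, 96.7, 95.3 and 95.1 at 3 mpi and at 75.3, 49.9 and 76.1 at 5 mpi. Library 2 was the lowest, the groups did not overlap, and Ermn fell by 0.57 (SE 0.13, limma adjusted p = 0.00878). Ugt8a, which makes galactocerebroside, fell by 0.49 and Klk6, a protease of oligodendrocytes, by 0.91. Trf, transferrin, made by both oligodendrocytes and choroid plexus, was between 370 and 539 at 3 mpi and at 281, 284 and 314 at 5 mpi, and fell by 0.54 (limma adjusted p = 0.0496). After Ctrl extract the same 20 genes were also all negative, with a median of -0.29 and none passing. Without 5 mpi library 2 no myelin gene passed in the AD step. The count was 1 without 5 mpi library 3 or 3 mpi libraries 1, 2, 4 or 5, and 2 without 5 mpi library 1 or 3 mpi library 3. With the choroid plexus covariate the median was -0.05 and 8 of 20 were positive. Of 13 precursor and newly formed oligodendrocyte genes 1 fell, Enpp6, a choline phosphodiesterase of newly formed cells, by 0.76.

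Genes of neurogenesis and cell division held 4 falls among 18 tested, against 3.74% lower over all genes tested. The count was 1 without any 1 of the 3 libraries at 5 mpi and 2 without 3 mpi libraries 1, 2 or 5. Igfbpl1, a gene of immature neurons, was at 2.12, 2.24, 2.81, 3.32 and 1.61 at 3 mpi and at 0.225, 0.640 and 0.350 at 5 mpi. The groups did not overlap, and Igfbpl1 fell by 1.27 (SE 0.26, limma adjusted p = 0.00484). With the choroid plexus covariate its value was -1.37 (adjusted p = 0.168). Eomes, the transcription factor of intermediate progenitors, was at 4.06, 1.72, 2.16, 4.22 and 1.68 at 3 mpi and at 0.180, 0.0775 and 0.597 at 5 mpi, and fell by 1.51 (SE 0.41, limma adjusted p = 0.0290). Mki67 and Top2a, genes of dividing cells, fell by 0.46 and 0.51. In the Ctrl step none of the 18 passed in the main limma fit, with Igfbpl1 at -1.08 and Eomes at -1.09. Igfbpl1 did pass there with edgeR (-1.94, adjusted p = 0.0457) and with a pseudocount of 0.1 (-1.77, limma adjusted p = 0.0480). From 3 to 5 mpi the mean log2 level of the list went from 2.87 to 2.60 after AD extract and from 2.85 to 2.67 after Ctrl extract. The values of Igfbpl1 and Eomes are low, and the log2(value + 1) scale understates their change.

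Microglial identity genes showed no call. None of 16 homeostatic microglia genes passed, with a median of -0.06, and Aif1 (-0.03), Trem2 (-0.02) and Cd68 (-0.19) did not pass. Of 27 genes of disease-associated microglia 3 fell, against 3.74% over all genes tested, and 1 was positive, with a median of -0.22. The 3 were Cd63 and Cd9, tetraspanins, and Ctsl, a lysosomal protease, all of which cells other than microglia also express. Cd63 was at 76.8, 79.6, 84.6, 83.0 and 74.2 at 3 mpi and at 41.0, 52.0 and 46.8 at 5 mpi. The groups were far apart, and Cd63 fell by 0.77 (SE 0.11, limma adjusted p = 0.000543), with -0.34 (adjusted p = 0.174) when choroid plexus level was a covariate. The genes more specific to that state did not pass: Clec7a was at -0.60 (adjusted p = 0.301), Itgax at -0.43 and Cst7 at -0.26. Apoe, which is not specific to it, did not pass either (-0.11).

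Among inflammatory genes, C3, Cd74 and Vim passed without 5 mpi library 2 and not with it. Vcam1, an adhesion molecule of vessels, was at 79.4, 79.0, 73.9, 74.8 and 56.2 at 3 mpi and at 30.5, 48.1 and 34.4 at 5 mpi. The groups did not overlap, library 2 was the highest at 5 mpi, and Vcam1 fell by 0.95 (SE 0.15, limma adjusted p = 0.00114). C3, the central complement component, was at 22.4, 11.0, 14.4, 17.1 and 6.28 at 3 mpi and at 2.79, 14.8 and 3.17 at 5 mpi. Library 2 lay within the 3 mpi range and the other 2 below it. The value for C3 was -1.17 (SE 0.52, limma adjusted p = 0.198), and -1.83 (adjusted p = 0.0483) without library 2. Cd74, the invariant chain of MHC class II, went from -1.31 (adjusted p = 0.129) to -2.0 (adjusted p = 0.0268) without library 2, and Vim, an intermediate filament, from -0.72 (adjusted p = 0.0648) to -1.07 (adjusted p = 0.0103).

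Library 2 at 5 mpi stood apart on several lists. Its mean log2 level of glucocorticoid response genes was 5.91 against 4.54 and 4.57 in the other libraries of its group and 4.59 to 5.50 at 3 mpi. Its meninges, fibroblasts and collagens level was 5.28 against 4.11 and 3.57, and its interferon response and antigen presentation level 3.52 against 2.65 and 2.74. Its reactive astrocytes level was 3.93 against 3.02 and 3.04. It was also the 1 library of its group with high Xist, so that sex, these levels and the library cannot be told apart at 5 mpi. Without AD library 2 at 5 mpi, 945 genes passed in the AD step, 190 higher and 755 lower, and 614 of the 1045 were among them. The count of falls without it was 17 for choroid plexus, 3 for ciliated ependyma, 1 for neurogenesis, 5 each for disease-associated microglia, reactive astrocytes, complement and meninges, 6 for interferon response and antigen presentation and 4 each for cytokines and glucocorticoid response. Without it 6 synapse genes rose, and no astrocyte or oligodendrocyte gene passed in either direction. Sgk1, a kinase induced by glucocorticoids, was at 56.3, 175 and 75.2 at 5 mpi and between 73.4 and 223 at 3 mpi, with a value of -0.76 (adjusted p = 0.103) with library 2 and -1.23 (adjusted p = 0.00887) without it.

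Meningeal and reactive genes gave few calls beside their size. Of 18 genes of meninges, fibroblasts and collagens 2 fell, none was positive, and the median was -0.86. The median was -1.43 with 5 calls without 5 mpi library 2, -0.28 with 6 positive and 1 call without library 3, and -0.27 with 5 positive under the choroid plexus covariate, and no gene passed without library 1. Both belong to insulin-like growth factor signalling, and choroid plexus also expresses them: Igfbp2, a binding protein, fell by 2.03 (limma adjusted p = 0.00517) and Igf2, a ligand, by 1.31 (adjusted p = 0.0143). With the choroid plexus covariate they were at -0.11 and -0.10. Of 27 reactive astrocyte genes 1 fell, near the share of 3.74% lower over all genes tested. It was Steap4, a metalloreductase, by 1.08, and Gfap (-0.20) and Serpina3n (0.11) did not pass. Of 15 complement genes Cd55 and Cd59a, which protect cells from complement, fell by 0.82 and 1.33, while C4b (-0.06) did not pass. Of 18 cytokine genes 2 fell, Vcam1 and the receptor gene Tlr2, the latter by 0.58.

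Among the cell biology lists, lysosome and autophagy had 3 lower and 1 higher of 25. The shares over all genes tested were 3.74% lower and 1.49% higher. Lamp2, a lysosomal membrane protein, was at 165, 168, 186, 167 and 157 at 3 mpi and at 102, 109 and 109 at 5 mpi. The groups were well separated, and Lamp2 fell by 0.65 (SE 0.11, limma adjusted p = 0.00185). Npc2, a lysosomal cholesterol carrier, fell by 0.47 and Map1lc3b, an autophagosome protein, rose by 0.28. Of 22 genes of the unfolded protein response 2 fell, Dnajc3 by 0.54 and Pdia4 by 0.59, both chaperones or helpers of the endoplasmic reticulum that secretory cells hold at high levels. No gene passed among cholesterol synthesis (18 of 21 positive, median 0.14), mitochondrially encoded genes, nuclear-encoded oxidative phosphorylation, the 28 cytosolic ribosomal proteins of the list, which does not hold Rpl12, cytosolic heat shock, immediate early genes, the circadian clock, glucocorticoid response, interferon response, endothelium, pericytes, thalamus and blood.

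**Figure D3:**
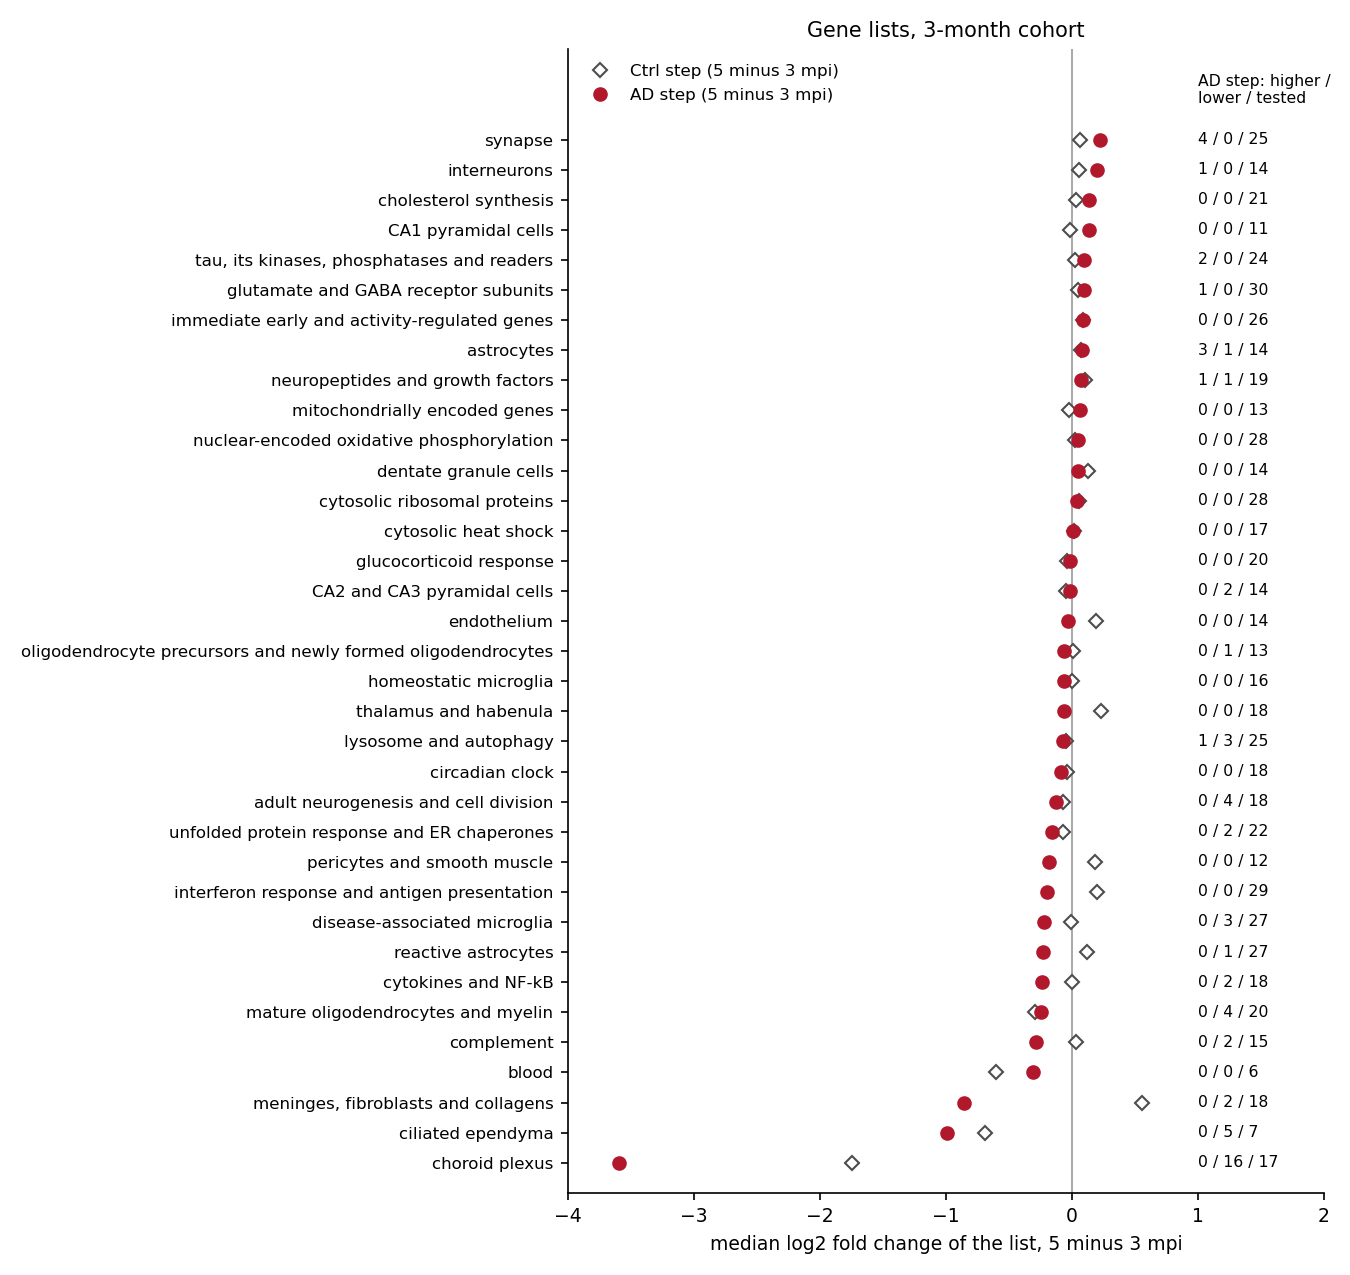
Median log2 fold change from 3 to 5 mpi (x axis) of 35 gene lists in the 3-month cohort, for the AD step (filled circles) and the Ctrl step (open diamonds); numbers at right count genes higher, lower and tested in the AD step. The choroid plexus list lies at -3.59 in the AD step and -1.75 in the Ctrl step, and the meninges list at -0.86 and 0.56.

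The lower and the higher genes had different values with choroid plexus level as a covariate. Of the 17 genes that make up this level, 16 fell in this same step. The level did not overlap between the groups, at 1.66 to 3.40 at 5 mpi and 5.75 to 6.29 at 3 mpi. The values with the covariate therefore rest on its slope within groups, and the cause of the falls or rises was not tested. The median of the 747 lower genes went from -0.62 to -0.15, and 616 kept their sign. That of the 298 higher genes went from 0.26 to 0.25, and 298 kept their sign. None of the higher genes still passed, the median standard error over all genes having gone from 0.0915 to 0.126. Cntnap1, the paranodal protein Caspr, named after its values were seen, was between 170 and 184 at 3 mpi and at 216, 226 and 224 at 5 mpi, and went from 0.31 (limma adjusted p = 0.0207) to 0.53 (adjusted p = 0.0721). Ttr went from -5.42 to 0.33, as it is 1 of the genes that make up the covariate.

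**Figure D4:**
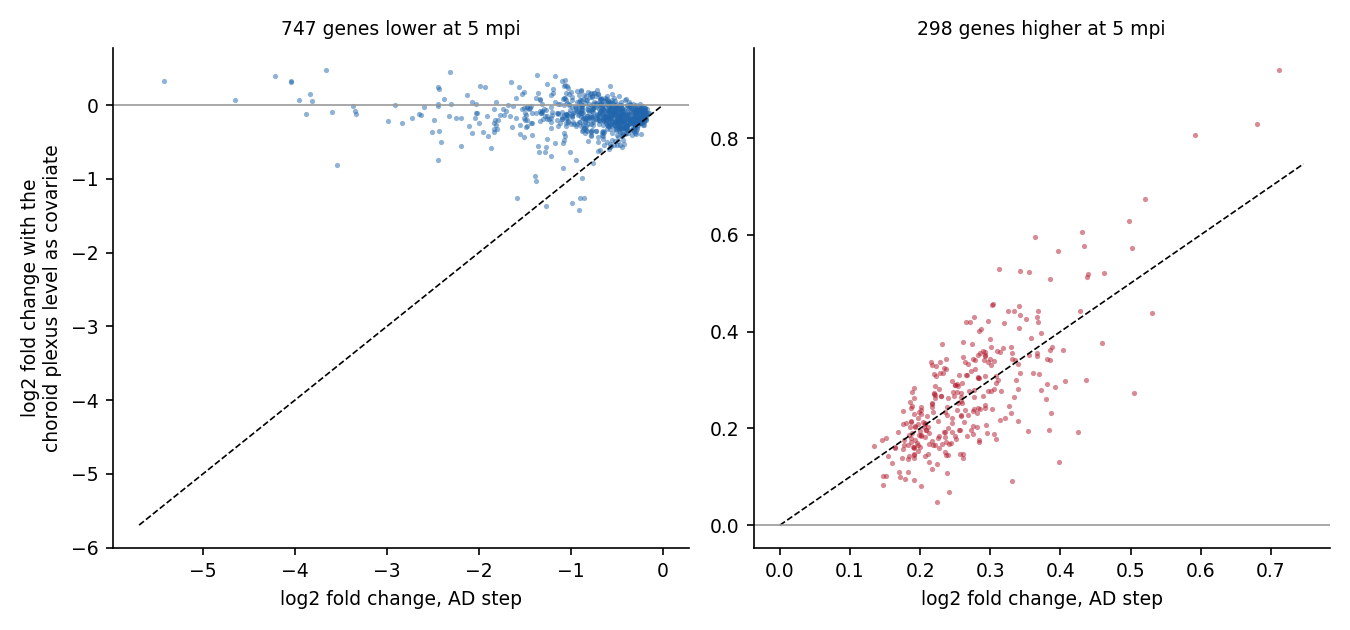
Log2 fold change of each called gene in the AD step (x axis) against its value with the choroid plexus level as a covariate (y axis), for the 747 lower genes (left) and the 298 higher genes (right); the dashed line marks equal values. Most lower genes lie near 0 on the y axis, with a median of -0.15, whereas the higher genes lie around the line, with a median of 0.25. The choroid plexus level does not overlap between the groups, so the y axis values rest on its slope within groups.

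The same step after Ctrl extract gave 1 call, Gm32468 (0.00501% of genes tested). An unadjusted limma p under 0.05 was found for 1800 genes against 3996 in the AD step, where 998.8 are expected if no gene changed. In the Ctrl step DESeq2 called 99 (15 higher and 84 lower), edgeR 8, and limma with only the Ctrl libraries of both times 51 (8 higher and 43 lower). The count was 5, 4, 26 and 6 without 3 mpi library 2, 3 mpi library 3, 5 mpi library 2 and 5 mpi library 3 of the Ctrl groups. The next genes by p-value, none of which passed, were Enkur, a sperm and cilia gene (-0.65), Cgn, the tight junction protein cingulin (-0.57), and Cldn5, the claudin of brain endothelium (0.71), each with limma adjusted p = 0.0698. Choroid plexus genes had a median of -1.75 with 1 of 17 positive and no call. Ttr was at 5564 ± 1430 (SD, n = 5) at 3 mpi and 1757 ± 1710 (n = 5) at 5 mpi after Ctrl extract. Foxj1 was at 16.1 ± 0.798 and 9.92 ± 2.60. Sdc2 was at 58.9 ± 2.53 and 54.2 ± 3.16, a smaller step than after AD extract.

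The difference between the AD step and the Ctrl step was tested itself. No gene passed with limma, edgeR called 0 and DESeq2 1, Sdc2. An unadjusted limma p under 0.05 was found for 1087 genes, where 998.8 are expected if no gene differed. The smallest limma p-values were those of Sdc2 (difference -0.33, SE 0.069), Sh3bgr, a small SH3-binding protein (-0.63), and Coq2, of coenzyme Q synthesis (0.26), each with adjusted p = 0.903. The calls in the AD step are therefore not shown to differ from the Ctrl step. Of the 747 genes lower in the AD step 727 were negative in the Ctrl step, with a median of -0.30, and of the 298 higher 280 were positive, with a median of 0.07. The groups of these steps share no library.

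In the 12-month cohort the AD step called 39 of 20084 genes (0.194%), 29 higher (0.144%) and 10 lower (0.0498%). Without any 1 of the 6 libraries at 3 mpi, or of libraries 1, 2, 4 and 5 at 5 mpi, that count was between 8 and 19. The largest change was in Dbp, a transcription factor of the circadian output, which fell by 0.90 (limma adjusted p = 2.21e-08), followed by Ciart, a repressor of the clock, which fell by 0.69, and by Rpl12, a ribosomal protein (0.56), mt-Co3, a cytochrome oxidase subunit (0.56), and Rxfp3, a relaxin family receptor (0.54). In the 3-month AD step these were at -0.17, -0.16, 0.19, 0.05 and 0.07, of which Rpl12 passed (adjusted p = 0.0369). Choroid plexus genes had a median of 0.18 in the 12-month cohort, with 13 of 17 positive.

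Of 21297 genes tested for a difference between the 3-month and the 12-month AD step, 2 passed (0.00939%). Sdc2 was lower in the 3-month step by a difference of -0.49 (SE 0.094, limma adjusted p = 0.0256), its own 12-month value being 0.03. Ccdc66, a protein of centriolar satellites and cilia, had a difference of -0.45 (SE 0.085, adjusted p = 0.0256), made of -0.18 at 3 months and 0.26 at 12 months. The count was 0 without any 1 of 3 mpi libraries 1, 2 and 3 or 5 mpi libraries 1 and 3 of the 3-month AD groups. Without 5 mpi library 2 it was 2, neither of them Sdc2 or Ccdc66. It was 1 without 3 mpi library 4 and 8 without 3 mpi library 5.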

How the data were processed

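Polyadenylated hippocampal RNA was sequenced, and the authors deposited 1 table per cohort of reads scaled to a common library size (scaled CPM), a signal that carries no gene length. Per the submitters' processing notes STAR, Picard, edgeR and GRCm38 were used; the counting tool, annotation and strand setting were not given in the sources used here. Of the deposited values, 100% were whole reads to within 0.01 read, which gave each library's depth. The planned test for such values, limma 3.58.1 (R 4.3.3) on log2(value + 1) with all groups of the cohort sharing 1 estimate of spread, was fitted over 19976 genes and adjusted by Benjamini-Hochberg. edgeR 4.0.16 and DESeq2 1.42.0 ran on the recovered reads as alternatives, beside other scalings, filters, pseudocounts, covariates and leaving out each library. The script was tested on simulated data. Named genes were the 15 highest and 15 lowest passing genes with a mean log2 level of at least 1 that are not gene models, up to 6 per list by p-value, and fixed genes of tau, glia and RNA quality; Otx2, Slc12a2, Slc13a4, Rarres2, Cfap54 and those said so in the text were named after their values were seen. A gene that the rule names is not reported here. The members and lists were chosen with earlier results of these data known. No libraries agreed within sampling noise.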

Additional observations from a re-analysis of the deposited data

Results flagged for a closer look

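Within the 5 libraries of AD extract at 3 mpi, 7 values had 1 library whose gap to its nearest neighbour took up an unusually large share of the group's range, by Dixon's criterion. Of 98 sets of values tested these are 7, and chance flags about 1 in 20 groups. The share was 0.711 for Ciart (library 3, at 7.0 against a median of 9.86), 0.763 for Lars2 (library 4, at 206 against 156) and 0.859 for Mapt (library 4, at 444 against 474). It was 0.894 for Prlr (library 3, at 365 against 100), 0.764 for Vcam1 (library 5, at 56.2 against 74.8) and 0.824 for Wfs1 (library 4, at 79.6 against 90.1). It was 0.749 for the reactive astrocytes list (library 5, at a mean log2 level of 3.32 against 3.65). The AD step differed between the 3-month and the 12-month cohort, by a test of the difference itself, for Ccdc66 (-0.45 on the log2 scale) and Sdc2 (-0.49).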

How the results depend on the processing

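The 1045 calls of the AD step became 2122 when only its own groups were fitted, 1 with choroid plexus level or with choroid plexus and ependyma levels as covariates, 551 with Gm42418 level and 675 with meninges level, and ran from 272 to 1001 when 1 library was left out. The ependyma and meninges covariates were chosen after seeing the data. The 1 call of the Ctrl step became 8 with edgeR, 99 with DESeq2, 5 with a pseudocount of 0.1, 51 with only its own groups and 2 with choroid plexus, choroid plexus and ependyma, or meninges level, and ran from 1 to 26 without 1 library. The difference between these steps gave 0 calls without any 1 library and 1 with DESeq2. The 12-month AD step gave 25 with edgeR and 8 to 48 without 1 library, and the difference between cohorts 0 to 8.

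With choroid plexus level as a covariate 12 named genes changed sign, none passing: Ttr 0.33, Tmem72 0.066, Mfrp 0.40, F5 0.31, Slc4a5 0.32, Kcne2 0.068, Folr1 0.15, Cldn2 0.060, Kcnj13 0.47, Npc2 0.0046, Rsph1 0.17 and Cd59a 0.084. Of 79 named called genes, 67 more no longer passed there, and 79 passed with DESeq2. The causes were not tested. Other normalizations, filters, pseudocounts, a robust spread and the sex and glucocorticoid covariates kept the AD step count within 1.5 times.

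With the replicate number as a block the counts were 1213 for the AD step, 1 for the Ctrl step, 0 for their difference, 21 for the 12-month step and 52 for the difference between cohorts. The numbers do not pair the libraries: deviations of same-numbered libraries correlated at -0.29, 0.11 and -0.04 for numbers 1, 2 and 3. With 3 libraries at 5 mpi, a small change in a variable gene was not detectable at this size.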
